A study of Caenorhabditis elegans with 11 samples.

Results

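The genes described here are 10 genes of oocytes and maternal RNA in Caenorhabditis elegans: oma-1, oma-2, mex-3, mex-5, mex-6, pos-1, pie-1, spn-4, puf-5 and rme-2. Their probe sets were taken by the gene symbol of the array's probe annotation, which gave 16 of the 22548 probe sets. Each of the 16 carries 1 symbol and all passed the filter on low values, so that 10 of 10 genes were measured. In 6 genes (oma-2, mex-3, mex-5, mex-6, pos-1 and spn-4) there are 2 probe sets, and in the other 4 genes 1. The genes were compared between L4 hermaphrodite populations of strain BW1940, which carries ctIs40, an integrated array of the dbl-1 cosmid ZC421 and a sur-5::gfp marker, and strain LT186, which carries the receptor mutation sma-6(wk7). BW1940 (5 arrays) has increased and LT186 (6 arrays) reduced signaling by DBL-1, a BMP-like ligand. Each strain is 1 line grown without treatment on OP50, both derive from N2, and no wild-type array is part of the comparison. Eggs obtained by bleaching hatched overnight without food, and the larvae were then fed and scored by eye for the L4 stage. The labels call every array a biological replicate and the study speaks of independent experiments, without saying what was separate between the arrays of a strain, so p-values measure the spread between these arrays.

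In the hermaphrodite gonad germ cells first become sperm, during the L4 stage, and later become oocytes. Growing oocytes load RNA for the embryo, and most of this RNA is held under translational control by RNA-binding proteins until the oocyte matures or the egg is fertilized. OMA-1 and OMA-2 are paired CCCH zinc finger proteins that act together in oocyte maturation. MEX-5 and MEX-6, a second CCCH pair, set up anterior-posterior differences in the zygote, and the CCCH proteins POS-1 and PIE-1 act in posterior blastomeres and the germ line. MEX-3 binds RNA through KH domains, SPN-4 through an RNA recognition motif and PUF-5 through PUF repeats. RME-2 does not bind RNA: it is the yolk receptor of the oocyte surface, of the LDL receptor family.

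Values are the deposited expression values, intensities on a linear scale. For the tests, values below 0 were set to 0, 10 was added and log2 was taken, which understates changes of weak genes. Log2 fold changes are BW1940 minus LT186, so that those above 0 are higher in BW1940. Adjusted p-values are from limma over the 18801 probe sets tested, and exact p-values are from a two-sided permutation test over all 462 divisions of the 11 arrays, whose smallest possible p is 0.00216. The median value of an array was 36.96 to 39.96 in BW1940, against 34.2 to 38.8 in LT186. As a check of the labels, the brighter sma-6 probe set had 82.4 to 128 in BW1940 and 26.5 to 33.6 in LT186, and the mean of the brighter dbl-1 probe set was 79.4 in BW1940 and 57.3 in LT186 (adjusted p = 0.318, exact p = 0.0801). The other dbl-1 probe set averaged 47 in BW1940 and 22.1 in LT186, a ratio of 2.13 (adjusted p = 0.117, exact p = 0.0173).

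Messages of the 10 oocyte genes varied widely from array to array, and no difference between the strains passed the test. Every one of the 16 probe sets was highest on LT186 replicate 6 and next highest on LT186 replicate 1, whereas 4.7% of all probe sets tested had these arrays in this order. The log2 fold change was below 0, that is lower in BW1940, for all 16 probe sets, against 39.3% of all probe sets tested. By limma 0 of the 10 genes passed at an adjusted p of 0.05, where 1.02% of all probe sets did, and at an unadjusted p under 0.05 there was 1 gene (spn-4, lower in BW1940), against 16.7% of all probe sets, or 5.03% counting those lower in BW1940. In 0 of the 16 probe sets did the strains separate without overlap, a pattern held by 4.41% of all probe sets. Since much the same arrays were high or low for the 10 genes, the genes are not independent readings of the strain difference.

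**Figure D1:**
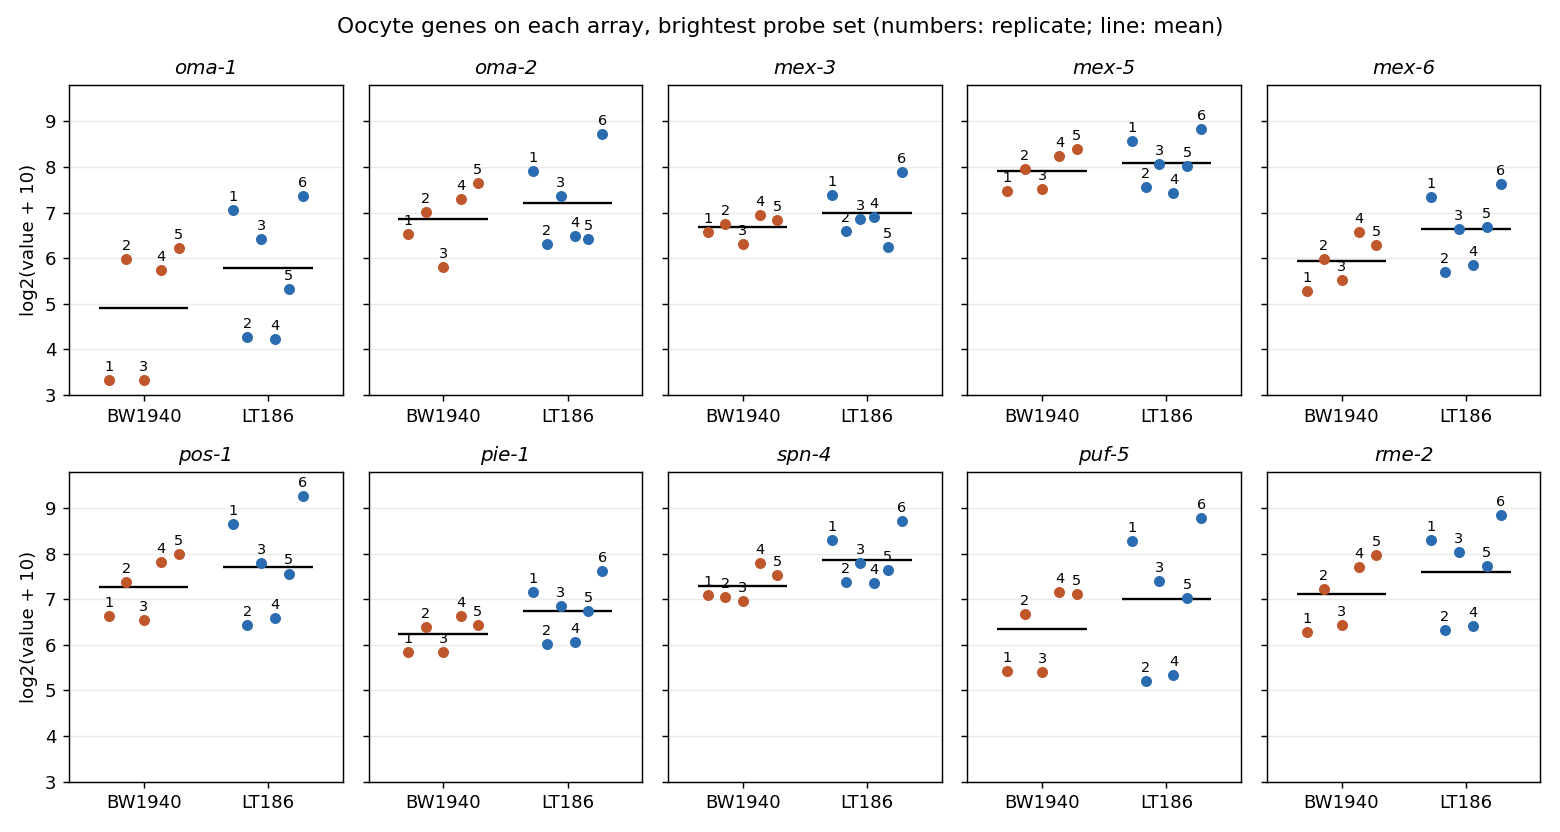
The value of each of the 10 genes on each array, as log2 of the value plus 10 for the brightest probe set of the gene, with BW1940 (5 arrays) left of LT186 (6 arrays), the replicate number above each point and a line at the strain mean. LT186 replicates 6 and 1 are the highest points in all 10 panels, and BW1940 replicates 1 and 3 and LT186 replicates 2 and 4 are the 4 lowest in 7 of them.

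The oocyte maturation gene oma-1 was the most variable of the 10 genes and reached the floor of the log2 scale. Its probe set, 189867_s_at, had values of -34, 52.9, -0.903, 43.8 and 64.5 on BW1940 replicates 1 to 5, and in LT186 values with a lowest of 8.77, a median of 52.9 and a highest of 155. BW1940 replicates 1 and 3 lay at the floor, a log2 value of 3.32, and LT186 replicates 2 and 4 above it, at 9.21 and 8.77 (log2 values of 4.26 and 4.23). The log2 fold change was -0.86 with a standard error of 0.76 (adjusted p = 0.652, exact p = 0.333), but -1.90 with 1 added in place of 10 and -0.42 with 50, and -0.46 without BW1940 replicate 1 or without replicate 3. Its within-strain SD of 1.42 on the log2 scale was larger than in 97.9% of the probe sets tested. No ratio of means is given for oma-1, since its BW1940 values reach below 0.

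Its partner oma-2 differed between its probe sets. The brighter, 189988_s_at, had 82.6, 120, 46.2, 148 and 192 on BW1940 replicates 1 to 5, against a lowest of 69.0, a median of 117 and a highest of 412 in LT186. The medians of the strains were thus close, with BW1940 replicate 3 below every LT186 array and LT186 replicates 1 and 6 above every BW1940 array. Its log2 fold change was -0.34 with a standard error of 0.47 (adjusted p = 0.811, exact p = 0.537). The other probe set, 173110_at, had a mean of 76.4 ± 24.9 over the BW1940 arrays (SD, n = 5) against 127 ± 48.8 over those of LT186 (SD, n = 6). With a log2 fold change of -0.63 with a standard error of 0.25 it had the smallest unadjusted p of the 16 probe sets, 0.0254, and an exact p of 0.0411, but it did not pass after adjustment (adjusted p = 0.229). Probe sets whose names end in _s_at or _x_at may take up RNA of related sequences, so that values of similar genes cannot be fully separated on this array.

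The zygotic polarity pair mex-5 and mex-6 had estimates of the strain difference of unlike size but with wide errors, and these were not tested against each other. For mex-5 the brighter probe set, 194215_x_at, gave 166, 238, 173, 294 and 324 on BW1940 replicates 1 to 5, and a lowest of 163, a median of 254 and a highest of 447 in LT186. All BW1940 arrays lay inside the range of LT186, and the log2 fold change was -0.17 with a standard error of 0.28 (adjusted p = 0.845, exact p = 0.576). The other mex-5 probe set, 193943_at, spanned a wider range, 45.5 to 216 in BW1940 against 47.8 to 367 in LT186, with a log2 fold change of -0.02 with a standard error of 0.56.
For mex-6 the brighter probe set, 175381_at, gave 28.6, 53.3, 36.1, 85.2 and 68.6 on BW1940 replicates 1 to 5, and a lowest of 42.1, a median of 91.2 and a highest of 189 in LT186. The mean was 54.4 ± 23.2 over the BW1940 arrays (SD, n = 5) against 102 ± 58.1 over those of LT186 (SD, n = 6), a ratio of 0.532. The log2 fold change, taken from log2 values and not from this ratio, was -0.71 (standard error 0.37, adjusted p = 0.371, exact p = 0.117). The other mex-6 probe set, 192002_at, had -0.36 (standard error 0.42, adjusted p = 0.754).

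The CCCH genes of posterior and germ line blastomeres, pos-1 and pie-1, had lower means in BW1940, by less than the arrays of a strain differed. The brighter pos-1 probe set, 192079_s_at, gave 89.1, 157, 83.0, 215 and 245 on BW1940 replicates 1 to 5, against a lowest of 76.4, a median of 197 and a highest of 609 in LT186. LT186 alone thus held a 7.97-fold range of pos-1. Its log2 fold change was -0.45 with a standard error of 0.51 (adjusted p = 0.750, exact p = 0.465), and that of the other probe set, 175810_at, was -0.56 (standard error 0.47, adjusted p = 0.625).
The probe set of pie-1, 175605_s_at, gave 47.4, 73.8, 47.7, 89.6 and 76.2 on BW1940 replicates 1 to 5, against a lowest of 54.9, a median of 101.3 and a highest of 187 in LT186. Its log2 fold change was -0.51 with a standard error of 0.29 (adjusted p = 0.419, exact p = 0.141). Strain held 22.4% of the variance of pie-1 over the 11 arrays and 6.34% of that of the brighter pos-1 probe set, where the median of all probe sets tested was 9.11%.

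Among genes of the other RNA-binding families the within-strain spread was smallest for mex-3 and largest for puf-5. The KH domain gene mex-3, whose product represses translation of the caudal homolog pal-1 in the embryo, gave 85.5, 97.8, 69.6, 114 and 104 on BW1940 replicates 1 to 5 with its brighter probe set, 175599_s_at, and a lowest of 65.7, a median of 108 and a highest of 228 in LT186. Its BW1940 values lay within a 1.64-fold range, the narrowest of the 10 genes in that strain, and its log2 fold change was -0.30 with a standard error of 0.26 (adjusted p = 0.652, exact p = 0.340). The other mex-3 probe set, 189002_s_at, had -0.03 (standard error 0.39).
The PUF repeat gene puf-5, which acts in late oogenesis, gave 32.8, 92.7, 32.5, 132 and 128 on BW1940 replicates 1 to 5 (194082_s_at), and a lowest of 26.8, a median of 140 and a highest of 431 in LT186. LT186 held a 16.1-fold range and BW1940 a 4.07-fold range of this message, and the log2 fold change was -0.65 with a standard error of 0.68 (adjusted p = 0.712, exact p = 0.381).
The gene spn-4, needed for spindle orientation and for translational control in the early embryo, gave 126, 123, 114, 212 and 175 on BW1940 replicates 1 to 5 with its brighter probe set, 174082_at, and a lowest of 155, a median of 201 and a highest of 414 in LT186. BW1940 replicates 1, 2 and 3 lay below every LT186 array, and replicates 4 and 5 among them. With a log2 fold change of -0.58 with a standard error of 0.27 it was the only gene whose brighter probe set had an unadjusted p under 0.05, at 0.0493, and it did not pass after adjustment (adjusted p = 0.297, exact p = 0.0671). The other spn-4 probe set, 192036_at, did not show this difference, with a log2 fold change of -0.07 with a standard error of 0.42 (adjusted p = 0.966).

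The yolk receptor gene rme-2 had the array pattern of the RNA-binding genes. Its probe set, 191883_at, gave 67.6, 140, 76.0, 199 and 242 on BW1940 replicates 1 to 5, and a lowest of 69.7, a median of 228 and a highest of 453 in LT186. The log2 fold change was -0.49 with a standard error of 0.50 (adjusted p = 0.710, exact p = 0.383). The mRNAs of its ligands, the yolk proteins, which are made in the intestine, had the opposite direction: all 5 vit genes measured had log2 fold changes above 0, with a median of 2.31, against a median of 0.08 over all probe sets tested. By limma 0 of the 5 passed after adjustment, and 3 were higher in BW1940 at an unadjusted p under 0.05, as were 11.7% of all probe sets. For vit-1 the values were 135 ± 74.9 over the BW1940 arrays (SD, n = 5) against 17 ± 38.7 over those of LT186 (SD, n = 6). Its log2 fold change was 2.35 with a standard error of 0.71 (adjusted p = 0.140, exact p = 0.0216). For vit-4 the log2 fold change was 2.31 (adjusted p = 0.243), for vit-5 2.98 (adjusted p = 0.246) and for vit-2 1.79 (adjusted p = 0.449), and the vit genes are alike enough in sequence that their probe sets may share signal. In LT186 vit-1 had a lowest value of -20.2 and a median of 9.94, and vit-5 and vit-2 had medians of 14.9 and 15.4. Such values are weak, so the sizes of these log2 fold changes depend on the 10 added. The mean log2 value of the vit genes was 8.81 on LT186 replicate 6, 5.83 or less on the other LT186 arrays, and 4.88 to 9.39 in BW1940. The difference between rme-2 and the vit genes was not tested.

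Over the 10 genes, strain differences were of the order of their errors. With the brighter probe set of each gene the median log2 fold change was -0.50, within a range of -0.86 to -0.17, and standard errors ran from 0.26 to 0.76. After quantile normalization, which took the median of all probe sets to 0.0026, the median of the 10 genes was -0.55 and all 16 probe sets stayed below 0, as did 49.6% of all probe sets. The 95% confidence intervals of the 10 brighter probe sets reached from -2.53 at the low end of oma-1 to 0.82 at the high end of puf-5, and the intervals of single genes were narrower, for example -1.53 to 0.11 for mex-6 and -1.15 to 0.13 for pie-1. That of spn-4 ended just below 0. LT186 replicate 6 weighed on most values: without it the median was -0.27, oma-2 stood at -0.03, mex-5 at -0.02, pos-1 at -0.14, mex-3 at -0.11, puf-5 at -0.30, rme-2 at -0.24, and 3 of the 16 probe sets, the other ones of mex-3, mex-5 and spn-4, were above 0 (0.24, 0.28 and 0.20).

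**Figure D2:**
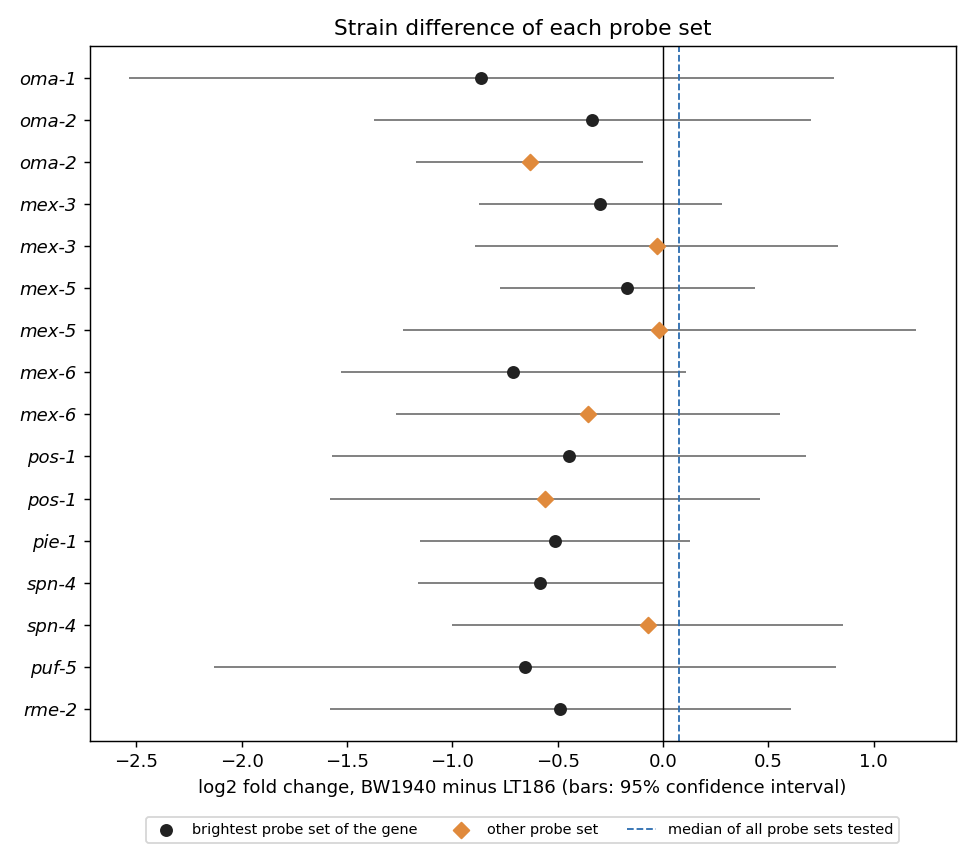
Log2 fold change of each of the 16 probe sets, BW1940 minus LT186, with its 95% confidence interval from limma, circles for the brighter or only probe set of a gene and diamonds for the other, and a dashed line at 0.08, the median of the 18801 probe sets tested. All 16 points lie below 0, and the interval lies wholly below 0 for spn-4 and the other probe set of oma-2 alone, without adjustment for the number of probe sets.

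The spread of arrays within a strain was large for all 10 genes. The within-strain SD on the log2 scale had a median of 0.78 over the genes, with a range of 0.47 (mex-3) to 1.42 (oma-1), while the median over all probe sets tested was 0.31. Genes with their SD in the top 10% of all probe sets were oma-1, oma-2, pos-1, puf-5 and rme-2. In 9 of the 10 genes, oma-1 being the exception, the SD was larger in LT186 than in BW1940, as it was in 57.3% of all probe sets tested. The median SD of the 10 genes was 0.60 in BW1940 and 0.88 in LT186.

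The same arrays were low in all genes but a few. Averaged over the 10 genes, the log2 value was 6.04, 6.84, 5.97, 7.19 and 7.24 on BW1940 replicates 1 to 5, and 7.90, 6.18, 7.33, 6.27, 6.94 and 8.37 on LT186 replicates 1 to 6. BW1940 replicates 1 and 3 and LT186 replicates 2 and 4 thus formed a low set in both strains. They were the 4 lowest arrays for 7 of the 10 genes, against 9.49% of all probe sets tested, with mex-3, oma-2 and spn-4 as the exceptions. For puf-5 the 4 arrays lay at 32.8 or below and the other 7 at 92.7 or above, and for rme-2 at 76.0 or below and 140 or above.

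These 4 arrays were also the lowest for genes of sperm. Over 35 sperm markers measured, the mean log2 value was 4.85, 6.87, 5.65, 7.20 and 6.84 on BW1940 replicates 1 to 5 and 7.44, 4.25, 7.21, 4.29, 7.31 and 7.49 on LT186 replicates 1 to 6. Among the 7 arrays of higher sperm values the sperm mean covered 6.84 to 7.49, while the mean of the oocyte genes covered 6.84 to 8.37, so that LT186 replicates 1 and 6 stood out in oocyte genes more than in sperm genes. Adult cuticle and molt markers (col-19, bli-1, bli-2 and mlt-10) were low on the same arrays, with a mean log2 value of 6.83 to 9.54 in BW1940 and 5.63 to 9.19 in LT186. The mean over 8 genes listed as markers of the gonadal sheath and spermatheca, somatic cells of the gonad, stayed at 6.87 to 7.01 in BW1940 and 6.80 to 6.99 in LT186. Single markers varied more, such as ipp-5 at 132 to 289 in BW1940 and 82.6 to 216.5 in LT186. In RNA of whole animals these genes may also be read from other tissues, so their mean is not a measure of the somatic gonad. Between the strains 0 genes of these lists passed at either level: log2 fold changes above 0 were found for 16 of 35 sperm markers (median -0.04), 4 of 8 sheath and spermatheca markers (median -0.00051) and 4 of 4 cuticle and molt markers (median 0.57), beside a median of 0.08 over all probe sets tested. Zygotic embryo markers lay low throughout, at 4.39 to 4.86 in BW1940 and 4.43 to 4.79 in LT186 over the 6 of 8 genes that passed the filter, of which 4 had log2 fold changes above 0 (median 0.11) and 0 passed the test. The part of these marker differences in the strain values of the oocyte genes was not tested beyond the fits given next. The study describes BW1940 animals as longer and LT186 animals as smaller than wild type. With RNA of whole animals, fewer oocytes, less RNA per oocyte, another share of germ line in the animal and another stage within L4 cannot be told apart.

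**Figure D3:**
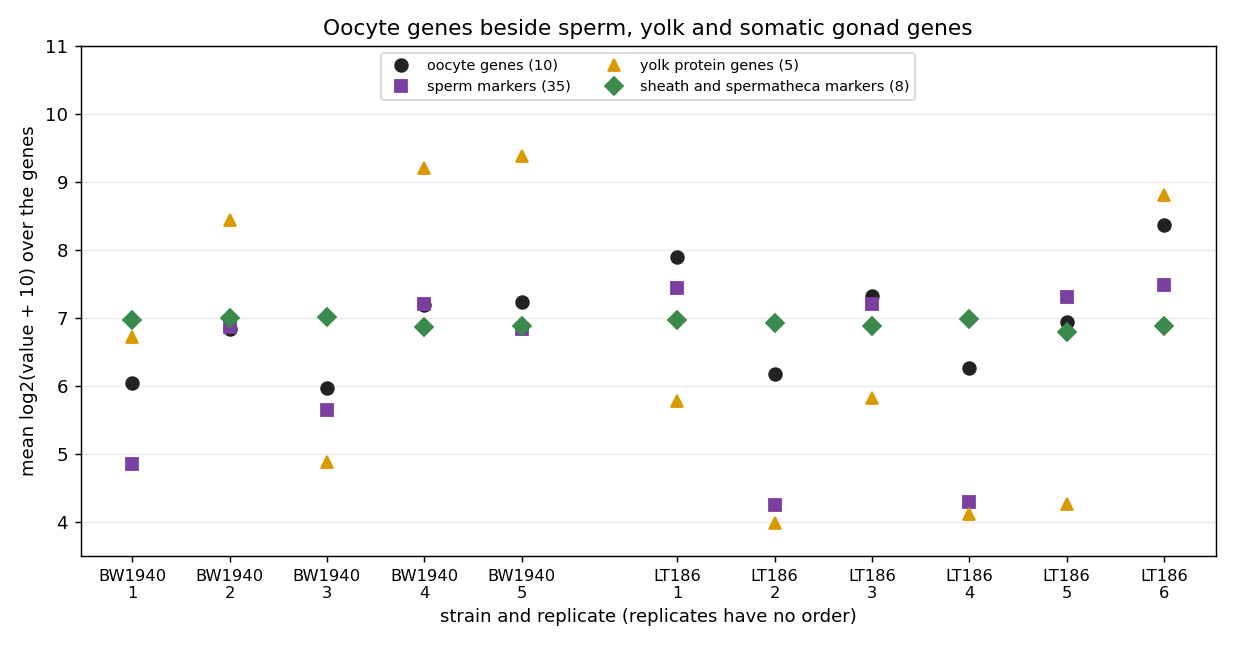
Mean log2 of the value plus 10 on each array for the 10 oocyte genes, 35 sperm markers, 5 yolk protein genes and 8 sheath and spermatheca markers, with BW1940 left of LT186. Oocyte and sperm genes are both low on BW1940 replicates 1 and 3 and LT186 replicates 2 and 4, the mean of the listed sheath and spermatheca markers stays between 6.80 and 7.01, and the yolk genes are high on BW1940 replicates 2, 4 and 5 and LT186 replicate 6.

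With the sperm mean as a covariate in the fit, the standard errors of the genes narrowed and 1 gene passed. The median standard error of the 10 genes was 0.22 with the covariate and 0.42 without it, and the median log2 fold change was -0.48. The gene that passed was mex-6, at -0.69 (standard error 0.17, adjusted p = 0.0419), where 5.41% of all probe sets passed in this fit and 2.1% passed with a lower value in BW1940. Without the covariate its adjusted p was 0.371, and over all the other settings tried it stayed above 0.05. The other mex-6 probe set stood at -0.34 (adjusted p = 0.416). Next came pie-1 at -0.50 (adjusted p = 0.0636), spn-4 at -0.57 (adjusted p = 0.0972), and rme-2 and puf-5 at -0.46 and -0.61 (adjusted p = 0.167 for both). These 5 genes were those whose brighter probe set had an unadjusted p under 0.05, a level that 25.2% of all probe sets reached, and 9.38% with a lower value in BW1940. Counting every probe set there were 7 of 16, with the other ones of oma-2 (-0.62, adjusted p = 0.0862) and pos-1 (-0.53, adjusted p = 0.143), while the other spn-4 probe set stood at -0.06 (adjusted p = 0.941).
Leaving out the 4 arrays of low sperm values, a setting chosen after the data were seen, left 3 arrays of BW1940 and 4 of LT186. On these 7 arrays mex-6 had 53.3 to 85.2 in BW1940 and 89.9 to 189 in LT186, and pie-1 had 73.8 to 89.6 in BW1940 and 97.4 to 187 in LT186. With the brighter or only probe set, the strains did not overlap in these 2 of the 10 genes. Of all probe sets tested 15.7% showed this in either direction and 7.2% with BW1940 lower. The other mex-6 probe set, 192002_at, did overlap, at 58.6 to 81.2 in BW1940 and 56.1 to 194 in LT186. Counting every probe set there were 2 of 16, too few to be read apart from these shares. By limma 0 of the 10 genes passed on the 7 arrays, where 0.239% of all probe sets did, and the adjusted p was 0.259 for mex-6 and 0.269 for pie-1.

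The probe sets of a gene did not always give the same picture, and LT186 replicate 5 stood out most often. On that array the 2 probe sets of spn-4 read 190 (174082_at) and 55.6 (192036_at), a log2 difference of -1.61, where the other 10 arrays lay between -0.52 and 0.41. The same array held the largest departure from the median difference for mex-3, mex-6 and pos-1, and LT186 replicate 2 held it for oma-2 and mex-5. For mex-3 the difference on LT186 replicate 5 was -0.88, from values of 31 and 65.7, and for mex-6 it was -0.63, from 56.1 and 92.6. LT186 replicate 5 was the lowest of all 11 arrays for both mex-3 probe sets and for 192036_at, yet among the 5 highest for pos-1 with 175810_at (214), pie-1 (97.4) and spn-4 with 174082_at (190). The place of these probes within the transcripts and the RNA quality of each array were not analysed here.

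**Figure D4:**
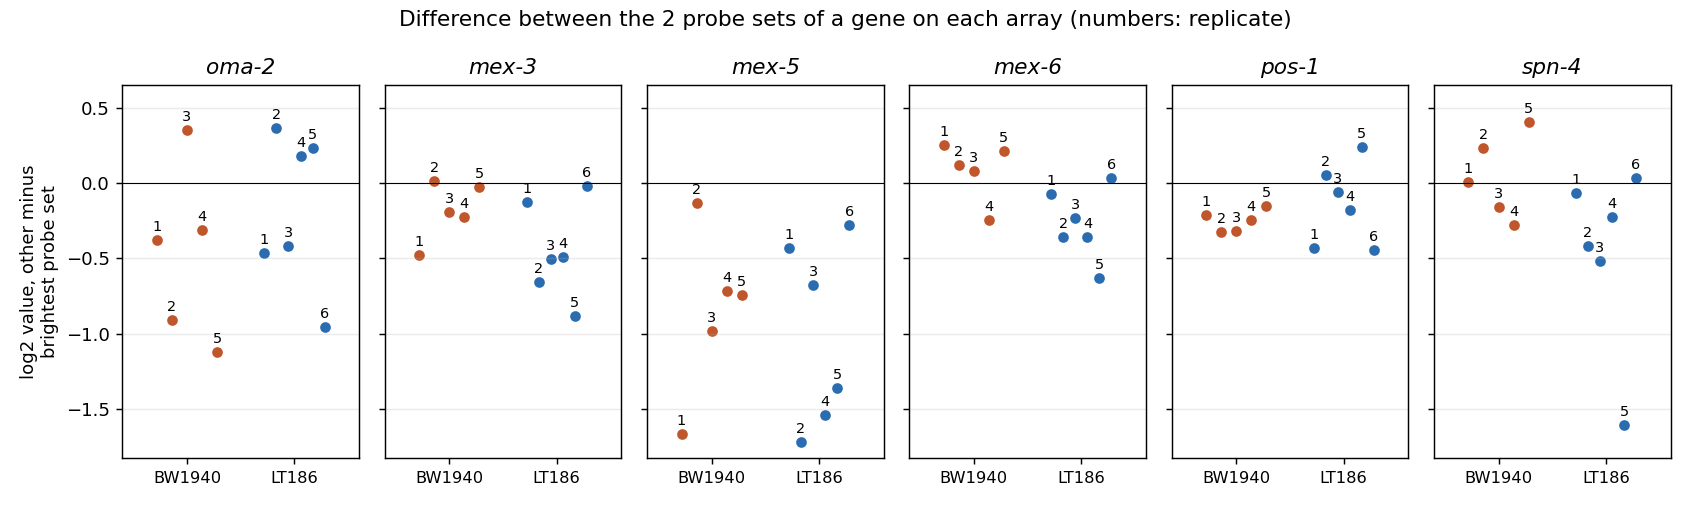
Log2 value of the other probe set minus that of the brighter probe set, on each array, for the 6 genes with 2 probe sets, with BW1940 left of LT186 and the replicate number above each point. LT186 replicate 5 lies at -1.61 for spn-4, apart from the other 10 arrays, and is the lowest point for mex-3 and mex-6.

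Other genes of oogenesis had the same direction in most cases, where 39.3% of all probe sets tested had log2 fold changes below 0. The means of the RNA regulators and of the eggshell genes were, like those of the 10 genes, highest on LT186 replicate 6 and next on replicate 1. The counts below are thus not independent of those of the 10 genes. Of 18 further RNA regulators measured, 15 had log2 fold changes below 0, with a median of -0.33, and 0 passed after adjustment, while 4 were lower at an unadjusted p under 0.05, a level that 5.03% of all probe sets reached in that direction. They were ifet-1, an eIF4E-binding repressor of oocyte mRNAs, at -0.57 (adjusted p = 0.112, exact p = 0.00216), the CPEB gene cpb-3 at -0.55 (adjusted p = 0.126, exact p = 0.00216), the DAZ family gene daz-1 at -0.37 (adjusted p = 0.228, exact p = 0.00649) and gld-1, a KH domain regulator of meiotic entry and oogenesis, at -0.44 (adjusted p = 0.286, exact p = 0.0606). Values of ifet-1 were 114 to 214 in BW1940 and 242 to 283 in LT186. Those of cpb-3 were 116 to 221.3 in BW1940 and 221.7 to 280 in LT186, so that the strains did not overlap, narrowly for cpb-3. Of all probe sets tested 4.41% showed no overlap in either direction and 1.46% with BW1940 lower. Both genes were named for the smallest p of their list, so their exact p and lack of overlap are not separate support. The highest LT186 array stood closer to the lowest for both than for any of the 10 genes, as a ratio of values.
Of 12 eggshell and oocyte surface genes 11 were below 0, against 39.3% of all probe sets, with a median of -0.24 and 0 passing at either level. Examples are the chitin synthase gene chs-1, at 74.7 ± 24.3 over the BW1940 arrays (SD, n = 5) against 118 ± 63.8 over those of LT186 (SD, n = 6) (log2 fold change -0.51, adjusted p = 0.483), gna-2, which supplies a precursor of chitin, at -0.48 (adjusted p = 0.413), the kinase gene mbk-2 at -0.24 (adjusted p = 0.495) and egg-3 at -0.39 (adjusted p = 0.618).
Of 16 genes of embryonic polarity and cell fate 12 were below 0, against 39.3% of all probe sets, with a median of -0.17. After adjustment 0 passed, and 2 were lower at an unadjusted p under 0.05, as were 5.03% of all probe sets. The Notch receptor gene glp-1, whose maternal mRNA is a target of several of these regulators, had 103 ± 16.1 over the BW1940 arrays (SD, n = 5) against 156 ± 30.4 over those of LT186 (SD, n = 6) (log2 fold change -0.55, adjusted p = 0.114, exact p = 0.00433). Its strains did not overlap, narrowly, at 82.4 to 124.1 in BW1940 and 126.3 to 206.5 in LT186, as in 1.46% of all probe sets with BW1940 lower. As glp-1 was named for the smallest p of its list, its exact p and lack of overlap are not separate support. The Notch ligand gene apx-1 stood at -0.44 (adjusted p = 0.198) and pal-1 at -0.35 (adjusted p = 0.489). The 14-3-3 gene par-5 stood at 0.23 (adjusted p = 0.376) with the values as deposited and at -0.07 after quantile normalization.

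Genes of nearest array pattern were sought over the whole array. Likeness was measured as the root mean square difference from the mean of the 10 genes, over the 11 arrays, of log2 values centred on each gene's mean, and its median over all other probe sets was 0.857. Among probe sets of 1 symbol the nearest were gfat-2 (0.123), which encodes an enzyme of the hexosamine pathway, F18A1.7 (0.145), the cyclin B gene cyb-2.2 (0.151), the glutamine synthetase gene gln-6 (0.152) and the cyclin B gene cyb-2.1 (0.155). A probe set shared by egg-4 and egg-5, pseudophosphatases of the egg cortex, was nearer still, at 0.103, and is named after its value was seen. The values of gfat-2 reached from 63.0 to 350 over the 11 arrays. By limma none of these genes passed between the strains (lowest adjusted p = 0.475, for gln-6). Genes chosen for likeness over all 11 arrays share the strain difference and spread of the 10 genes, so this is not a separate result. Of the 10 genes themselves pos-1 lay nearest to the mean, at 0.179, followed by mex-6 at 0.197 and rme-2 at 0.215, and oma-1 lay farthest, at 0.669.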

How the data were processed

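Total RNA of L4 animals was measured on whole-genome Affymetrix arrays of C. elegans, with 5 arrays of BW1940 and 6 of LT186. The deposited unit is a linear intensity for each probe set. The authors exported probe signals from Microarray Suite 5, summarised them in Probe Profiler with less weight on uninformative probes, and scaled the arrays globally to 100. Background and cross-hybridization handling can shift weak values, some of which are below 0. No further normalization was applied. Gene names come from the platform annotation (20766 probe sets with 1 symbol, 887 with several, 895 with none), and all 10 symbols are in RefSeq WBcel235. Where a gene has 2 probe sets, that of the higher mean is called the brighter one and represents the gene.

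Probe sets with at least 10 on at least 2 arrays were tested by limma 3.58.1 under R 4.3.3, using lmFit and eBayes without covariates, with Benjamini-Hochberg adjustment. Permutation tests and counts were made in Python 3.11.15 (scipy 1.17.1, pandas 2.3.3). The fit was tested on simulated data. Named besides the 10 genes are up to 4 genes of each list with the smallest p (sperm, sheath, cuticle and embryo markers are given as lists), sma-6 and dbl-1 and the 5 nearest in pattern. The 10 genes, the lists and the settings were chosen with earlier results of these data known, and tests of the lists were not made. As alternatives, other offsets, filters, scalings and tests were tried, also a replicate block, a sperm covariate, and fits without single arrays or without the arrays of low sperm values. Precision is limited by the 11 arrays. No sequence was analysed here.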

Additional observations from a re-analysis of the deposited data

How the results depend on the processing

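Under every setting tried, those with 1 array left out included, the brighter probe sets of the 10 genes had log2 fold changes below 0, at times by as little as -0.02 (mex-5). The other probe sets of mex-3, mex-5 and spn-4 turned above 0 under some settings: all 3 without BW1940 replicate 3, LT186 replicate 1 or LT186 replicate 6 (the same values as with the block), 2 without the 4 arrays of low sperm values or without BW1940 replicate 1, and 1 with the sperm covariate or without LT186 replicate 3. The count of genes past limma's test stayed at 0, except for 1 gene, mex-6, with the sperm covariate. At an unadjusted p under 0.05 there was 1 gene, spn-4, and the methods' t-test, run in its plain equal-variance form on log2 values and not in the modified form of Probe Profiler, gave 0 genes after adjustment. With 1 array left out the 10 genes ranged from -0.30 to -0.02 (mex-5), -0.53 to -0.03 (oma-2), -0.45 to -0.11 (mex-3), -0.70 to -0.14 (pos-1), -1.02 to -0.30 (puf-5), -0.75 to -0.24 (rme-2), -0.66 to -0.34 (pie-1), -0.71 to -0.41 (spn-4), -0.90 to -0.51 (mex-6) and -1.19 to -0.46 (oma-1). The median of the 10 genes was between -0.69 and -0.27 with any 1 array left out, where -0.27 is the value without LT186 replicate 6, and their count past the test was then 0 each time. It was -0.84 without BW1940 replicate 1 and LT186 replicates 2 and 4, and -0.59 without BW1940 replicate 3 as well. Same-numbered arrays did not deviate together (correlations of -0.69 to 0.11 over probe sets). The labels do not say whether they were grown or processed together, and these correlations cannot settle it. With a replicate block over replicates 1 to 5 the median was -0.27, 0 of the 10 genes passed and 5 probe sets of the array did, against 191 with no block and all arrays. The count over the whole array was also 366 with an offset of 50, 416 with no filter, 381 by the methods' t-test, 1018 with the sperm covariate, 83 without BW1940 replicate 1 and LT186 replicates 2 and 4, 45 without BW1940 replicate 3 as well, and 78 to 151 with any 1 array left out, a drop of over 1.5 times except without BW1940 replicate 5, LT186 replicate 4 or LT186 replicate 5. Of the calls, 129 of 191 were higher in BW1940 with the values as deposited, 85 of 171 after quantile normalization and 89 of 155 after median centring. The cause of these shifts was not tested. Values of oma-1 near the floor have no order among themselves.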
